A study of Mus musculus and Rattus norvegicus with 2 samples.

Results

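The miR-148/152 family consists of 3 microRNAs, miR-148a-3p, miR-148b-3p and miR-152-3p, which share a seed. They were examined in sperm of the cauda, the last segment of the epididymis, where mature sperm are held. The mouse sperm were of strain C57BL/6 at 2 months of age and the rat sperm of strain Sprague Dawley at a young adult weight of 450 g, with 1 library per species, and the labels describe both sperm preparations as purified. RNA of 18 to 45 nt was sequenced. The labels do not state whether a library pools animals. Members were selected on the deposited names and on sequence: all sequences under a mature name of the family, on either arm, and all under any annotation with the same first 18 nt as the mouse sequence of each name with the highest read count. None of the mouse sequences analysed here had the name miR-152-3p, so its first 18 nt were taken from the mature sequence in RefSeq. The members are 3 of the 220 miRNAs detected by their first 18 nt in the mouse and 3 of the 193 detected in the rat. Both arms gave 32 of the 86644 distinct mouse sequences with a count and 20 of the 137388 of the rat, which held 215 of 691381 listed mouse reads and 206 of 2102735 listed rat reads. Without replicates no difference between species was tested, and every interval below is an exact 95% interval that covers counting error only.

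MicroRNAs guide Argonaute proteins to messenger RNAs, mainly through the seed at their 5′ end, and lower the stability and translation of those messages. The miR-148/152 family is best known for targeting Dnmt1, the maintenance DNA methyltransferase, and members have also been tied to lipid uptake in the liver and to antigen presentation. Each precursor hairpin carries a mature miRNA on its 3′ arm, which is the abundant strand of this family, and a partner strand on its 5′ arm. The ends of a mature miRNA are set by the nucleases Drosha and Dicer, and its 3′ end can later be trimmed or extended by added nucleotides.

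The mature sequences of the 3′ arms are shown because the members differ at only a few bases, by which reads were assigned to them here. They are mouse RefSeq sequences on GRCm38.p6, written 5′ to 3′ with the seed, bases 2 to 8, in capitals.
miR-148a-3p: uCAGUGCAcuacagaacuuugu
miR-148b-3p: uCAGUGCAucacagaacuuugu
miR-152-3p: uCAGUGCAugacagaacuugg
Counted from 1 at the 5′ end, miR-148b-3p differed from miR-148a-3p by C9U and U10C, and miR-152-3p differed from miR-148b-3p by C10G and U20G. The seed CAGUGCA was held by these 3 of the 1679 mouse mature miRNA names in the RefSeq table and by no other. Their partner strands are miR-148a-5p, miR-148b-5p and miR-152-5p.

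The hairpins are shown because the bases after the mature 3′ arm tell whether a longer read matches its precursor. Both mature arms are in capitals.
Mir148a: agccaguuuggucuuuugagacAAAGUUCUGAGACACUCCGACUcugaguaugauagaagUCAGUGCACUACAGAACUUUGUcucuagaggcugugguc
Mir148b: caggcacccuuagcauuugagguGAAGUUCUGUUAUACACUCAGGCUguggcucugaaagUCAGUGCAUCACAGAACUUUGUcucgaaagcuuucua
Mir152: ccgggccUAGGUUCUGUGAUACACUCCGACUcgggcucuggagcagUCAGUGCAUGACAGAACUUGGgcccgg
In GRCm38.p6, Mir148a lies at chr6:51269812-51269910 on the minus strand and overlapped no other gene of the annotation. Mir148b lies at chr15:103285125-103285221 on the plus strand, in an intron of Copz1. Mir152 lies at chr11:96850393-96850465 on the plus strand, in an intron of Copz2. Both host genes encode coatomer subunits. Rat reads were read against the mouse hairpins, since no rat precursor was used here.

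By sequence, miR-148a-3p was the most abundant member in both species, followed by miR-148b-3p, and miR-152-3p was close to the limit of counting. miR-148a-3p had 156 reads in the mouse library, with a Poisson interval of 132 to 182, and 166 in the rat library (142 to 193). It made up 74.6% of the family's 3′ arm reads in the mouse (interval 68.2 to 80.4) and 82.6% in the rat (76.6 to 87.6). miR-148b-3p had 50 mouse reads (37.1 to 65.9), or 23.9% of the family (18.3 to 30.3), and 34 rat reads (23.5 to 47.5), or 16.9% (12 to 22.8). The intervals of these shares overlapped between the species for both members, while those of the 2 members were apart within each library. All 166 rat reads of miR-148a-3p were listed at the limit of 2 mismatches, so any with a further mismatch are missing from its count and share. miR-152-3p had 3 mouse reads (0.619 to 8.77) and 1 rat read (0.0253 to 5.57), so its level could not be compared between species at this depth.

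The deposited names gave another picture in the rat. By name, the rat table held 139 reads of miR-148b-3p, 7 of miR-152-3p and 0 of miR-148a-3p. Of the 166 rat reads with the miR-148a-3p sequence, 112 were filed as miR-148b-3p, 6 as miR-152-3p and 48 under a GenBank microRNA precursor entry. The 6 reads filed as miR-152-3p were the 18 nt and 19 nt forms. All 166 reads were listed with 2 mismatches to their entry, the most that the tables allow, and these fell at the bases in which the members differ. Only 27 of the 139 reads named miR-148b-3p had the miR-148b-3p sequence, and only 1 of the 7 named miR-152-3p had the miR-152-3p sequence.

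**Figure D1:**
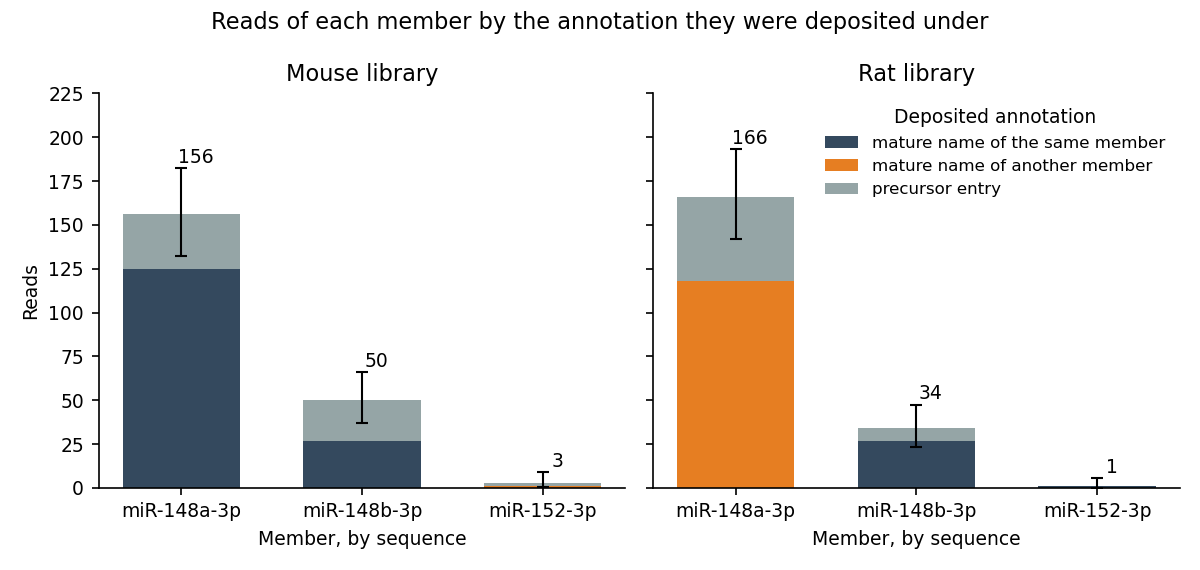
Reads of each member, assigned by sequence, in the mouse and the rat library, split by the annotation they were deposited under. Bars are read counts and error bars are exact Poisson 95% intervals of the total. The 118 rat miR-148a-3p reads under a mature name all carried the name of another member, whereas 125 of 156 mouse reads carried their own.

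In the mouse the names followed the sequences more closely. Of the 156 miR-148a-3p reads, 125 had their own mature name and 31 were under the precursor entry of Mir148a. miR-148b-3p had 27 reads under its own name and 23 under the precursor entry of Mir148b. Of the 3 miR-152-3p reads, 2 were under the precursor entry of Mir152 and 1 was filed as miR-148b-3p with 2 mismatches. Over the whole family, the mature name matched the read's own sequence for 72.7% of the reads in the mouse (66.2 to 78.6) and for 13.9% in the rat (9.46 to 19.5). Precursor entries held a similar share in both, 26.8% (20.9 to 33.3) and 27.4% (21.3 to 34.1), so a count of mature names alone misses them. The mouse entries were those of each member's own gene. All 55 such rat reads were under a single entry, 48 of them miR-148a-3p at 2 mismatches and 7 miR-148b-3p. That entry also held the 3 rat miR-148b-5p reads, which were listed with no mismatch.

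Relative to the reads annotated as mature miRNAs, the family was near equal in the libraries. Mouse reads of that kind numbered 23507 and rat reads 25951, and levels are given as reads per 1000000 of them (RPM). The levels include family reads under precursor entries, 56 in the mouse and 55 in the rat, which are not part of those totals. The family's 3′ arms stood at 8891 RPM (mouse) and 7745 RPM (rat), a log2 ratio of mouse over rat of 0.20 (interval -0.09 to 0.49). miR-148a-3p stood at 6636 and 6397 RPM, with a log2 ratio of 0.05 (-0.27 to 0.38). In the mouse 13 of its 156 reads had a mismatch or a 3′ base that does not match. Such reads of rat miR-148a-3p could not be listed under its entries, so its rat level and that of the family leave them out. miR-148b-3p stood at 2127 and 1310 RPM, with a log2 ratio of 0.70 (0.04 to 1.37). Fewer cells carrying a miRNA and less of it per cell cannot be told apart in such bulk RNA. Only the interval of miR-148b-3p excluded 0, narrowly, and it covers counting error without any spread between animals or libraries. With precursor entries added to the totals, the family's log2 ratio fell to 0.09. The miR-148b-3p ratio was not recomputed on that scale, so its exclusion of 0 is not firm. All ratios used a pseudocount of 1 RPM.

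The size of the difference in level depended on the scale. As a share of all listed reads, the family held 0.0302% in the mouse (interval 0.0263 to 0.0346) and 0.00956% in the rat (0.00828 to 0.0110), a log2 ratio of 1.65 (1.37 to 1.95). Mature miRNAs as a class were 3.40% of the listed mouse reads and 1.23% of those of the rat. Across 56 miRNAs, counted by their first 18 nt and with 10 reads or more on each side, the median log2 ratio was 0.00 per mature-miRNA read and 1.41 per listed read. By the same count, miR-148a-3p was at -0.01 and 1.44, and miR-148b-3p at 0.67 and 2.07.

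With a ratio of 2 taken as the limit, 0 of the 2 members that reached 10 reads in either library passed it per mature-miRNA read. Of the 89 miRNAs with as many reads, 24.7% passed it toward the mouse and 32.6% toward the rat. Per listed read both members passed it toward the mouse, as did 57.3% of the 89, against 13.5% toward the rat. miR-148a-3p lay close to the median of the 56 miRNAs under either scale, and miR-148b-3p above it under both.

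**Figure D2:**
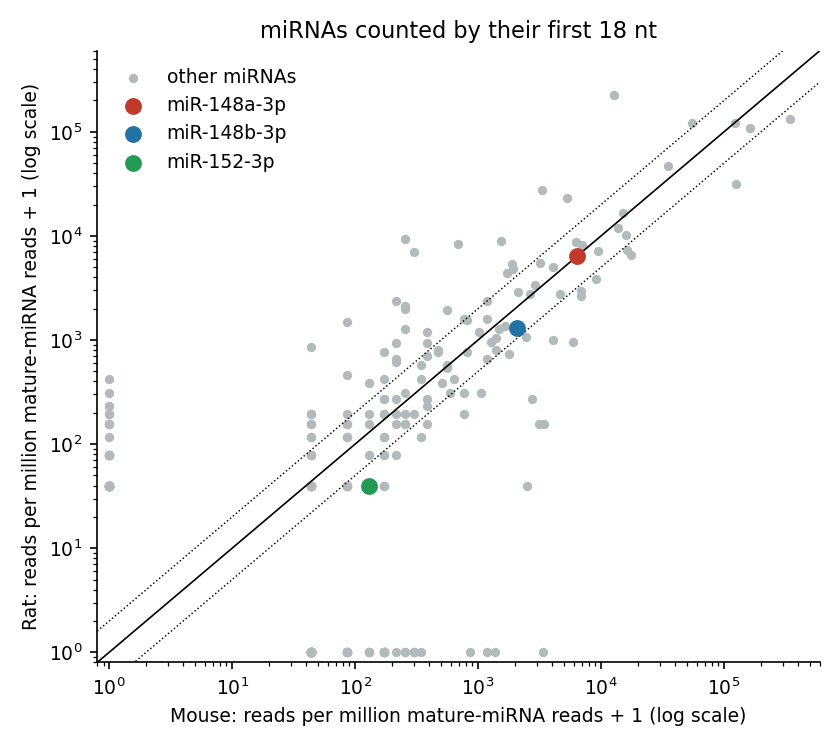
RPM of mature-miRNA reads plus 1 in the mouse (x axis) and the rat (y axis), both on log scales, for every miRNA counted by its first 18 nt. The solid line marks equal levels and the dotted lines a ratio of 2. miR-148a-3p lies next to the solid line at 149 mouse and 166 rat reads, miR-148b-3p slightly to the mouse side at 49 and 34, and miR-152-3p near the bottom of the counts at 3 and 1.

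In the order of all miRNAs by this count, miR-148a-3p was at rank 18 of 220 detected in the mouse and 22 of 193 in the rat. In the mouse it stood between miR-182-5p, with 161 reads, and miR-30d-5p, with 147. In the rat its neighbours were miR-127-3p, with 169 reads, and miR-99a-5p, with 144. miR-148b-3p was at rank 36 in the mouse, between miR-425-5p with 50 reads and miR-30c-5p with 45, and at rank 45 in the rat, between let-7b-5p with 35 reads and miR-3553 with 33. All of these neighbours lay within the Poisson intervals of the members given above, so these ranks are not firm.

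The miRNAs with log2 ratios nearest to a member, out of the 56, were picked per mature-miRNA read. For miR-148a-3p they were miR-191-5p (0.02, from 2883 mouse and 3136 rat reads), miR-25-3p (-0.05, from 62 and 71) and miR-196a-5p (0.04, from 13 and 14). For miR-148b-3p they were miR-99b-5p (0.64, from 373 and 265), miR-872-5p (0.74, from 109 and 72) and miR-451a (0.59, from 15 and 11). The likeness rests on 2 libraries. For miR-152-3p no ratio is given, since both counts were at or below 3.

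The 2 abundant members differed in their extended 3′ forms. The choice by the first 18 nt used no later base, but a deposited name or entry rests on the whole sequence with at most 2 mismatches, and 8 mouse and 2 rat reads were found by name alone. The mature form itself, ending at base 22, was the most abundant sequence of each. It had 107 mouse reads and 106 rat reads for miR-148a-3p, and 21 and 20 for miR-148b-3p. The forms of each that extend past base 22 and are described here are written as deposited, as DNA and 5′ to 3′, with bases that do not match the hairpin in capitals.
miR-148a-3p, 23 nt: tcagtgcactacagaactttgtc
miR-148a-3p, 24 nt: tcagtgcactacagaactttgtct
miR-148b-3p, 23 nt: tcagtgcatcacagaactttgtT
miR-148b-3p, 24 nt: tcagtgcatcacagaactttgtTT
These extended miR-148a-3p forms matched the hairpin, and these extended miR-148b-3p forms did not. Of miR-148a-3p, the 23 nt form was read 23 times in mouse sperm and 46 times in rat sperm, and the 24 nt form 5 and 2 times. The 23 nt form of miR-148b-3p had 2 mouse and 4 rat reads, and its 24 nt form 16 and 2. In the last of these the final T is also the hairpin's base, so it can be read as 2 added bases or as a single mismatch at base 23, which is how the table lists it.

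Both mouse hairpins have C as base 23, directly after the mature end. Of the 31 mouse miR-148a-3p reads that reached this base, 29 had C, 1 had T and 1 had A. A mouse miR-148a-3p sequence with T there and a TT tail is listed with a date in place of its count, and with its month read as 10 reads T had 11 of 41 and C 29 of 41. Of the 23 mouse miR-148b-3p reads that reached it, 20 had T, 3 had A and 0 had C. Read as allowing 3 counts, this 0 gives a share of C of up to 13.0%, and the exact interval reaches 14.8%. In the rat, T was present in 7 of 7 miR-148b-3p reads. C was present in 48 of 48 rat miR-148a-3p reads, which were listed with 2 mismatches already and could not have shown another base there. A C at this base matches the mouse miR-148b hairpin, so the limit of 2 mismatches did not keep such miR-148b-3p reads out of the mouse table.

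As a share of all reads of a member, 3′ bases that do not match the hairpin were found in 46.0% of the mouse miR-148b-3p reads (23 of 50, interval 31.8 to 60.7) and in 4.49% of the mouse miR-148a-3p reads (7 of 156, 1.82 to 9.03), which became 10.2% (17 of 166, 6.08 to 15.9) with the month of the dated sequence read as its count. They were found in 26.5% of the rat miR-148b-3p reads (9 of 34, 12.9 to 44.4). In the opposite direction, extensions that matched the hairpin made up 17.9% of miR-148a-3p in the mouse (28 of 156, 12.3 to 24.9) and 28.9% in the rat (48 of 166, 22.2 to 36.4). For miR-148b-3p such extensions had 0 of 50 mouse reads (interval 0 to 7.11) and 0 of 34 rat reads (0 to 10.3). With a count of 0 read as allowing 3 counts, the limits are 6.00% and 8.82%. Shorter forms were a small part in each case, from 5.13% for miR-148a-3p in the mouse to 14.7% for miR-148b-3p in the rat.

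**Figure D3:**
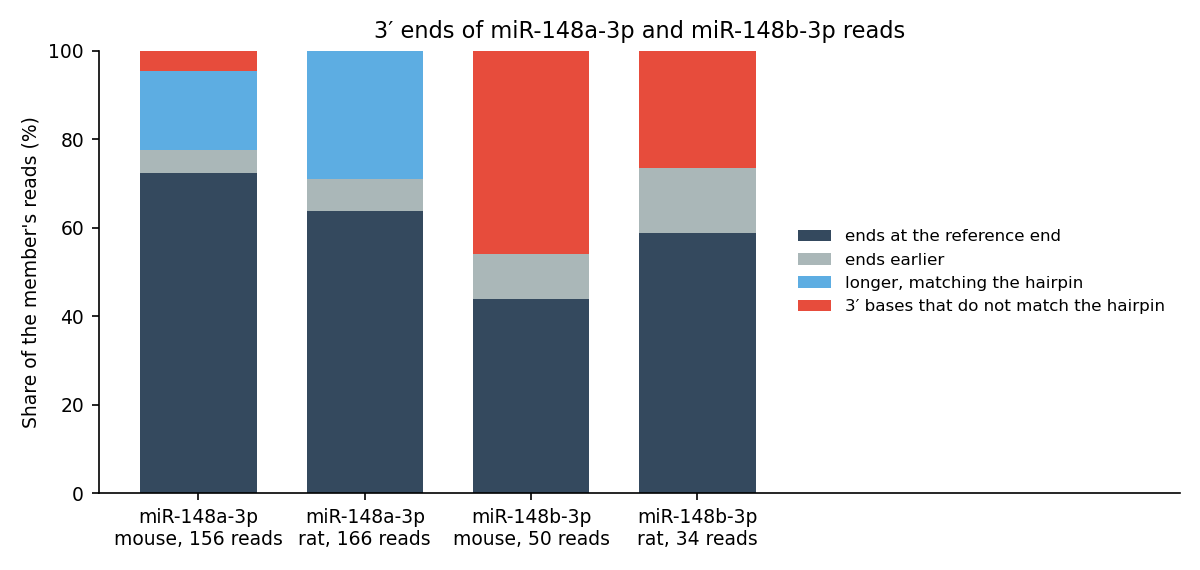
Share of reads of miR-148a-3p and miR-148b-3p by 3′ end in each library. Colours mark reads that end at the reference end, end earlier, are longer and match the hairpin, or carry 3′ bases that do not match it. Matching extensions appear on miR-148a-3p (17.9% and 28.9%) and not on miR-148b-3p, where bases that do not match make up 46.0% and 26.5%. Sequences with a date in place of a count are left out, and rat miR-148a-3p could not show non-matching bases.

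The rat miR-148a-3p reads could not show such bases. All of them already carried 2 mismatches to their entry, so a further one would have kept the sequence out of that entry, and 0 of 166 had one. Just outside the rule, a rat sequence of 2 reads matched the whole of mature miR-148a-3p except for T5G and was filed under an mRNA entry at 2 mismatches. The comparison of non-matching bases between miR-148a-3p and miR-148b-3p therefore rests on the mouse library. The rat shares of the other 3′ forms of miR-148a-3p also leave such reads out of their total. They can therefore be too high beside those of the mouse.

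Tails made of T alone were the main kind on miR-148b-3p, with 18 of 50 mouse reads (36.0%, 22.9 to 50.8) and 6 of 34 rat reads (17.6%, 6.76 to 34.5). The other tails on it were A, C or mixtures of A and T, with 5 mouse and 3 rat reads. On mouse miR-148a-3p the 7 tailed reads were A alone in 6 and TA in 1. With the month of the dated TT form read as its count, T alone had 10 of 17 tailed miR-148a-3p reads and A alone 6, so the more frequent kind turned from A to T. T tails were then 6.02% of all 166 reads (2.93 to 10.8). All 3 mouse reads of miR-152-3p had a base that does not match, A, T or AC, while the 1 rat read was the exact mature sequence.

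Set beside other miRNAs, the T tails of miR-148b-3p were at the upper end. For this comparison reads were found by bases 3 to 18 at any label, with the start allowed to move by 2 bases, among miRNAs of at least 50 reads with a hairpin in RefSeq. Some abundant miRNAs are not among those compared, such as miR-143-3p, miR-375-3p and miR-34c-5p, with 2961, 383 and 298 mouse reads. In the mouse 36.7% of the miR-148b-3p reads had a T tail, above all 33 other miRNAs, whose median was 1.42% and highest value 25.9%. Mouse sequences with a date in place of a count were left out here, and this rank was not recomputed with them. In the rat it was 17.6%, with 2 of 36 others above it, a median of 1.36% and a highest value of 24%. For non-matching bases of any kind, 4 of 33 mouse and 5 of 36 rat miRNAs were above miR-148b-3p. The 4 in the mouse were miR-3470b, miR-6538, miR-6240 and miR-3473b/miR-3473e, which ended at the reference end in 0% to 3.51% of their reads. Of the 5 in the rat, miR-6240 and miR-3473b/miR-3473e did so in 0% and 4.88%. The other rat ones, miR-30c-5p, miR-140-3p and miR-34c-3p, did so in 49.2%, 1.27% and 21.0%. miR-148a-3p ended at the reference end in 71.3% (mouse) and 63.9% (rat) of its reads. In the mouse 3 of 33 others were above it. The rat share is not ranked, because reads of rat miR-148a-3p with non-matching bases could not be listed under its entries while those of other miRNAs could. The rat value of miR-148b-3p comes from 34 reads and its mouse value from 49, below the limit of 50 set for the others.

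**Figure D4:**
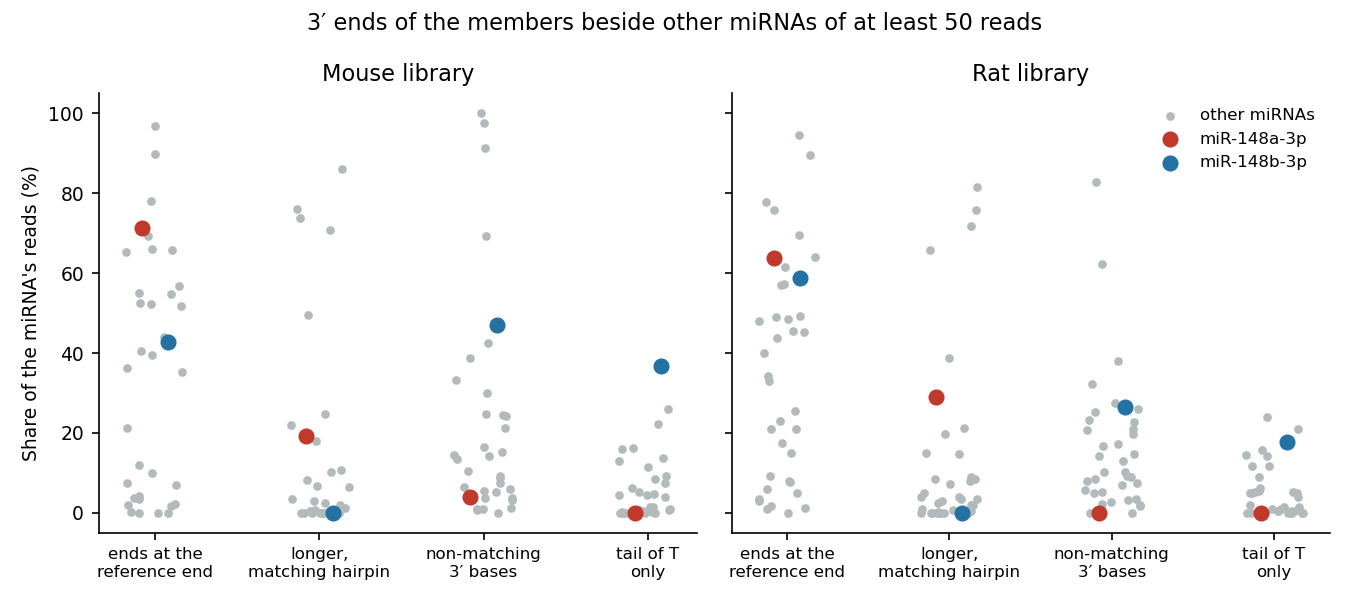
Share of reads by 3′ end for miR-148a-3p, miR-148b-3p and every other miRNA of at least 50 reads with a RefSeq hairpin (33 in the mouse, 36 in the rat). Each grey point is 1 miRNA. miR-148b-3p is the highest of all mouse miRNAs shown for tails of T only (36.7%). Sequences with a date in place of a count, among them a TT-tailed mouse miR-148a-3p form, are left out, and rat miR-148a-3p could not show non-matching bases.

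The 5′ ends were uniform, which the choice of members fixes for sequences found by their first 18 nt. A search by bases 3 to 18 at any position added a single mouse read, under the Mir148a precursor entry, that started 2 bases late and so lacked the start of the seed. Sequences found by name alone could differ within the first 18 nt. In the mouse 8 of the 209 reads of 3′ arms did so, 3.83% (1.67 to 7.40), and each change lay in the seed. They were A3G with 2 reads, C7A with 2, and A3T, G6A and T5A with 1 each on miR-148a-3p, and A3G with 1 on miR-148b-3p. Counts of 1 or 2 reads cannot be told apart from sequencing error. The rat had 0 of 201 such reads, of which the 166 of miR-148a-3p could not have carried another mismatch under their entries.

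The 5′ arms were rare. miR-148a-5p had 4 mouse and 0 rat reads, miR-148b-5p 1 and 3, and miR-152-5p 1 and 2. Together they had 6 reads against 209 of the 3′ arms in the mouse and 5 against 201 in the rat. No rat read was under a miR-148a name, and miR-148a-5p differs from the other 5′ arms at more than 2 bases. Rat miR-148a-5p reads could thus not have been listed under the entries of those arms, so the 0 does not measure its level. The 3 rat reads of miR-148b-5p were under a precursor entry and not under the mature name. The 2 rat reads of miR-152-5p started 1 base later than the mouse mature sequence.

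Markers of other cells and of germ cells were present in both libraries, and their part in the family's level was not tested. Counted by the first 18 nt, the 6 epithelial miRNAs summed to 614 mouse and 324 rat reads. Of these, miR-375-3p held 383 and 189 and miR-141-3p 213 and 101, while miR-200a-3p had 5 and 24. The 4 of stroma and muscle summed to 2985 and 851, of which miR-143-3p held 2961 and 820. Among them miR-145a-5p (13 and 15) and miR-199a-3p (8 and 15) had more reads in the rat. The 6 blood miRNAs summed to 94 and 14 reads, with miR-144-3p and miR-142a-3p at 0 in both, miR-150-5p and miR-223-3p at 0 in the mouse and miR-486-5p at 0 in the rat. The 4 germ cell miRNAs, of the miR-34b/c and miR-449 group, summed to 419 and 6938. All miRNAs of the epithelial, stromal and germ cell lists had at least 1 read in each library.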

How the data were processed

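The deposited values were read counts per distinct sequence, listed per the file headers with a strand, a matched entry from miRBase, Rfam or GenBank and at most 2 mismatches to it. The submitters' processing notes name Bowtie, version 0.12.7, and the genome builds mm9 and rn5 without a role. Adapter trimming and database order: not given in the sources used here. Sequences of minus-strand matches were turned back to the read. Of the mouse sequences, 2535 have a date in place of identifier and count and were left out of the main values.

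Reads were assigned to the nearest member over the first 18 nt, at start shifts of up to 2 bases. A tail starts at the first base after base 18 that does not match the mouse RefSeq hairpin (GRCm38.p6). All miRNAs were counted by the first 18 nt of their RefSeq mature sequence, with 39 starts added from deposited names that the RefSeq table does not hold. The rule for miRNAs named beside the members was the nearest log2 ratios and the nearest neighbours in the order of counts. Python 3.11.15 and SciPy 1.17.1 gave exact Clopper-Pearson and Poisson intervals. Those of ratios came from the exact binomial interval of the count in the mouse given both. A count of 0 was read as allowing 3 counts. No molecular identifiers are described, so PCR copies count as reads. The assignment of members and ends was tested on simulated reads, whose mismatches lay only in the seed that the members share. No change at bases 9 or 10, by which the members differ within the first 18 nt, and no start shift was simulated. Members, lists and rules were chosen with earlier results of these data known. Alternatives covered how members are found, filters, scaling and pseudocounts of 0.1 and 10.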

Additional observations from a re-analysis of the deposited data

Results flagged for a closer look

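Among the mouse sequences, 1 of the family is listed with those whose count was replaced by a date, and it entered no main value above. It is the 24 nt form of miR-148a-3p with a TT tail, the counterpart of the 16-read form of miR-148b-3p, and the month reads as 10 reads, above the limit of 3. With it, the reads of mouse miR-148a-3p with bases that do not match the hairpin go from 7 of 156 (4.49%) to 17 of 166 (10.2%, interval 6.08 to 15.9), still below the interval of miR-148b-3p, 31.8 to 60.7. T at base 23 then has 11 of 41 reads in place of 1 of 31, and T alone 10 of 17 tailed reads in place of 0 of 7.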

How the results depend on the processing

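No paired analysis was possible because each species has 1 library. Of 136 values recomputed, 93 stayed within the interval of the main value, 43 moved outside it, and the log2 ratio kept its sign under every alternative run. The family's shares, log2 ratio, split by member, names, starts, reference length and mismatch or tail share, 17 values in all, stayed inside with members found by their first 18 nt, by bases 3 to 18 or within 1 mismatch, and with the month read as the count. The tails of mouse miR-148a-3p alone did not: with the month they went from 4.49% to 10.2%, and T at base 23 from 1 of 31 to 11 of 41 reads. The pseudocounts, and scaling by the median ratio, by mature and precursor entries or by miRNA reads found by sequence, also left the family's log2 ratio inside its interval, from 0.09 to 0.20. Scaled to all listed reads it was 1.65, and to those of 20 to 24 nt 2.52.

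Counted by name only, the family's share of listed reads was 0.0221% (mouse) and 0.00694% (rat). miR-148a-3p then made up 81.7% and 0% of it, miR-148b-3p 18.3% and 95.2%, and miR-152-3p 0% and 4.79%. With only sequences listed at no mismatch, the family held 0.0461% and 0.00164%, with a log2 ratio of 2.61. miR-148a-3p then made up 84.6% and 0%, miR-148b-3p 15.4% and 96.2%, and miR-152-3p 0% and 3.85%. The order of miR-148a-3p over miR-148b-3p in the rat thus turned by name and at no mismatch, as it did for distinct sequences below, and the miR-148a-3p share was then higher in the mouse than in the rat. The value of 0 for rat miR-148a-3p follows from the filters, since its reads had no name of their own and 2 mismatches each.

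Among sequences of 20 to 24 nt the family held 0.236% and 0.0396%. With only sequences of at least 10 reads, miR-152-3p was at 0% in both, and rat miR-148a-3p and miR-148b-3p at 88.4% and 11.6%. The reference length then had 76.6% and 73.3% of the reads, and a mismatch or tail 9.58% and 0%. Counting each distinct sequence once gave a log2 ratio of 0.78 and a rat share of 0.0124%. miR-148a-3p then made up 53.6% and 41.2%, miR-148b-3p 35.7% and 52.9%, and miR-152-3p 10.7% and 5.88%. Own names were then 50% and 41.2%, the reference length 28.6% and 17.6%, and a mismatch or tail 71.4% and 29.4%. The cause of these other shifts was not tested. The T tails of miR-148b-3p rest on 18 mouse and 6 rat reads. The alternatives within 1 mismatch and by mature and precursor entries or miRNA reads found by sequence, the month and bases 3 to 18 for names and ends, and the month for the tails of single members were chosen after seeing the data.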
